A study of Mus musculus with 6 samples.

Results

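Nephron segment transcription factors are nuclear proteins that set and keep the identity of successive parts of the kidney tubule. The 8 described here were taken as a list of names and found by matching Ensembl gene identifiers to mouse symbols: Hnf4a and Hnf4g of the proximal tubule, Pax2 and Pax8 of the tubule lineage at large, and Tfap2b, Gata3, Tfcp2l1 and Foxi1 of the distal nephron and collecting duct. They are 8 of 57180 genes listed in the tables, and all 8 are among the 18092 genes that passed the filter on low counts. Total kidney RNA was sequenced from 6 wild-type male C57BL/6J mice that were 7 weeks old at the start. In the vehicle group, 3 mice received deionized water (0 mg/kg), and in the nanoplastic group 3 received cationic polystyrene nanoparticles at 200 mg/kg. Both were given orally every day over 6 weeks. Each library came from 1 mouse, and errors therefore describe differences among animals. The question put to these genes was whether factors of the proximal tubule and of the distal nephron and collecting duct differed between nanoplastic and vehicle kidneys.

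Hnf4a is a nuclear receptor that drives the maturation of proximal tubule cells, the cells that reclaim most of the filtered salt, glucose and amino acids, and Hnf4g is its close relative. Pax2 and Pax8 are paired-box factors without which the nephric lineage does not form, and both persist in adult tubule epithelium. Tfap2b is needed for distal tubule differentiation, Gata3 for the nephric and ureteric duct, Tfcp2l1 for the mature collecting duct, and Foxi1 for acid-base transporting intercalated cells. Their RNA in a whole kidney reflects both how many cells of a segment are sampled and how much each cell holds. Fewer cells of a type and less RNA per cell cannot be told apart in these bulk samples.

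The tables held 19408534 to 26292760 expected counts per library. Markers of the labelled tissue were abundant in every library, with Slc34a1, the proximal phosphate transporter, at 3315 to 3952 CPM (counts per 1000000 of the library, scaled by TMM) and Lrp2, the endocytic receptor megalin, at 7197 to 8748 CPM. Nanoplastic 1 stood apart: summed over 9 urothelial genes it held 40.9 CPM against 3.53 to 10.5 CPM in the other 5 libraries, and over 7 adipocyte genes 126 CPM. Vehicle 3 held 39.0 CPM of the adipocyte genes, and the other 4 libraries held 10.8 to 12.3 CPM. Estimates were therefore also made without these 2 libraries, from vehicle 1 and 2 and nanoplastic 2 and 3, called the remaining 4 libraries.

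None of the 8 factors passed the test. With edgeR's quasi-likelihood test, 0 of 8 had a Benjamini-Hochberg adjusted p under 0.05, with values from 0.717 to 0.997, and over all genes 0.0% were called. At an unadjusted p under 0.05 there were 0 of 8 factors, against 7.42% of all genes. DESeq2 gave 7 of the 8 an adjusted p, and limma-voom gave all 8 one. Both called 0 factors, and at an unadjusted p under 0.05 both also had 0. The share of genes was 2.92% of 31316 with DESeq2, which was run without the filter on low counts. With limma-voom it was 7.19% of the 18092 filtered genes, so the 2 shares are of unlike gene sets. The groups of 3 mice overlapped in all 8 factors, whereas 12.9% of all genes had groups that did not overlap, 6.54% with nanoplastic higher and 6.32% with it lower. The median log2 fold change, nanoplastic minus vehicle, was 0.03 over the factors and 0.01 over all genes, with 6 of 8 estimates positive. For 6 of the 8 factors the 95% interval excluded a difference of 1.5-fold in either direction, as it did for 63.6% of all genes. The exceptions were Pax2 and Gata3, which are also the least abundant of the 8. The remaining 4 libraries were a comparison of 2 against 2 mice chosen after seeing the data. In it all 8 estimates were positive, from 0.07 to 0.55, and the median over all genes was 0.0. Vehicle 3, left out there, was the highest vehicle mouse for each of the 8 factors. Leaving it out raised every estimate, so the shared sign follows in part from the choice of libraries. In this comparison 0 of 8 factors were called, and 30 of 18144 genes were (0.165%), 14 higher and 16 lower.

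**Figure D1:**
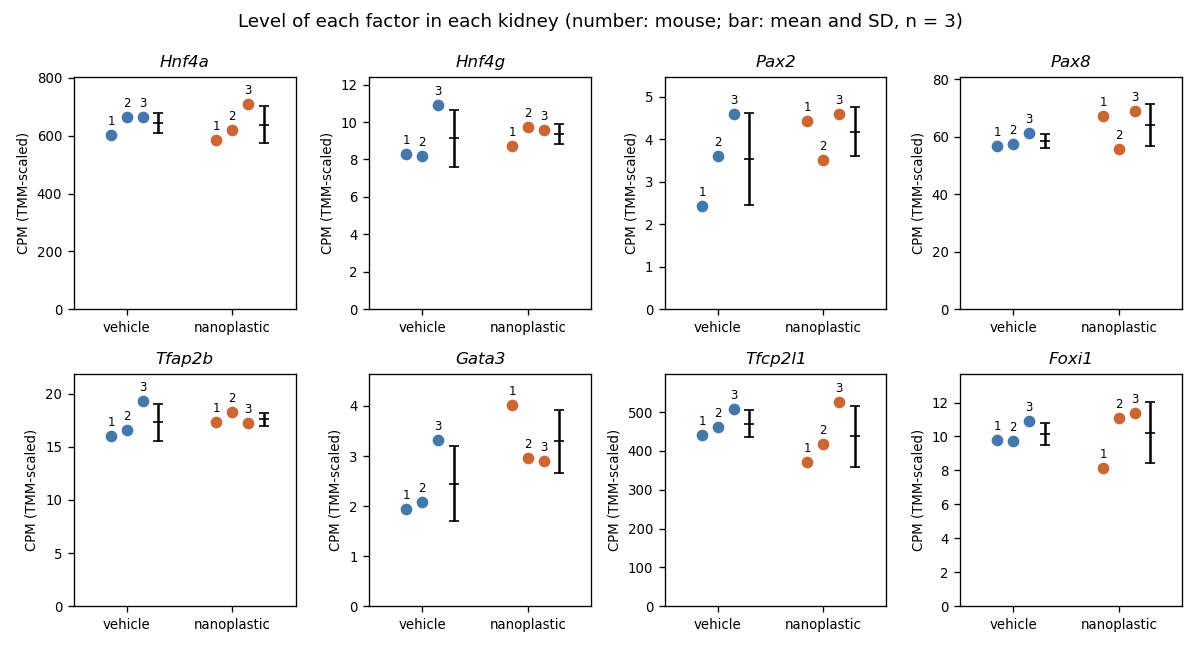
Level of each factor in CPM (y axis, from 0) in the 3 vehicle and 3 nanoplastic kidneys. Points are mice with their numbers and bars are the mean and SD; the groups overlap in all 8 panels.

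Among the proximal factors, Hnf4a measured 603, 664 and 665 CPM in vehicle mice 1, 2 and 3 and 584, 621 and 709 CPM in nanoplastic mice 1, 2 and 3. The nanoplastic group holds both the lowest and the highest of the 6 values, and the vehicle values lie between them. The group levels were 644 ± 35.4 and 638 ± 64.3 CPM (SD, n = 3 each), a log2 fold change of -0.01 (SE 0.08, 95% interval -0.20 to 0.17, edgeR adjusted p = 0.983). The interval corresponds to 0.871 to 1.13 times the vehicle level. It rested on 13638 to 15649 counts per library. The antisense gene Hnf4aos overlaps Hnf4a and held 115 to 194 counts. The counts of both genes were whole in all 6 libraries, so they show no reads divided between the pair. The sources used here do not say whether strand entered the counting. Whether either gene took reads of the other was not tested.

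Hnf4g measured 8.30, 8.19 and 10.9 CPM in the vehicle mice and 8.73, 9.73 and 9.57 CPM in the nanoplastic mice. The highest value is vehicle 3, and the nanoplastic values all lie inside the vehicle range. This gave a log2 fold change of 0.03 (SE 0.13, 95% interval -0.26 to 0.33, edgeR adjusted p = 0.970). It was counted 184 to 256 times per library, so Hnf4g was measured less precisely than Hnf4a. Both receptors of this pair therefore had intervals inside 1.5-fold.

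The nephron-wide factors had higher group means in nanoplastic kidneys, within the spread between mice. Pax8 measured 56.8, 57.6 and 61.5 CPM in the vehicle mice and 67.4, 55.9 and 69.1 CPM in the nanoplastic mice. Nanoplastic 1 and 3 lie above every vehicle mouse and nanoplastic 2 lies below every one. The log2 fold change was 0.13 (SE 0.09, 95% interval -0.06 to 0.32, edgeR adjusted p = 0.757). It was the only factor whose count was not whole in all 6 libraries. The gene Gm13415 overlaps it on the opposite strand with 452 to 644 counts. In vehicle 1 Pax8 had 1458.48 and Gm13415 451.52 counts, and in every library the fractions of the pair add to a whole number. RSEM thus divided reads between these genes, and the Pax8 level rests in part on that division. On the deposited TPM, Pax8 had a difference of 0.29 on the log2(TPM + 0.1) scale (limma adjusted p = 0.906).

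Pax2 measured 2.42, 3.60 and 4.59 CPM in the vehicle mice and 4.43, 3.51 and 4.58 CPM in the nanoplastic mice. Vehicle 1 is the lowest, and the other 5 libraries lie between 3.51 and 4.59 CPM. The log2 fold change was 0.24 (SE 0.23, 95% interval -0.27 to 0.75, edgeR adjusted p = 0.832). Pax2 had 62 to 109 counts per library. Without vehicle 1 the log2 fold change was 0.02, and without vehicle 3 it was 0.48, so its size was decided by which vehicle mouse was present.

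Of the distal and collecting duct factors, Tfap2b measured 16.0, 16.6 and 19.3 CPM in the vehicle mice and 17.3, 18.3 and 17.2 CPM in the nanoplastic mice. The nanoplastic values again lie inside the vehicle range. Their log2 fold change was 0.02 (SE 0.09, 95% interval -0.18 to 0.23, edgeR adjusted p = 0.969). This was the smallest relative spread of the 8 factors over the 6 libraries, with a coefficient of variation of 6.71%, next to 7.26% for Hnf4a.

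Tfcp2l1 measured 441, 462 and 508 CPM in the vehicle mice and 372, 417 and 525 CPM in the nanoplastic mice. Nanoplastic 1 is the lowest and nanoplastic 3 the highest of all 6. The log2 fold change was -0.10 (SE 0.11, 95% interval -0.36 to 0.15, edgeR adjusted p = 0.853). Nanoplastic 1 decided the sign: without that mouse the value was 0.00, and without nanoplastic 3 it was -0.25, at an unadjusted p under 0.05 that did not pass adjustment over all genes (edgeR adjusted p = 0.457).

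Foxi1 measured 9.82, 9.71 and 10.9 CPM in the vehicle mice and 8.16, 11.1 and 11.4 CPM in the nanoplastic mice. Nanoplastic 1 is below and nanoplastic 2 and 3 are above all vehicle mice. Between groups the log2 fold change was 0.00 (SE 0.14, 95% interval -0.30 to 0.30, edgeR adjusted p = 0.997). Foxi1 has 1 transcript in the tables, so its length, 2357 bases, was the same in every library.

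Gata3 had the largest estimate of the 8. It measured 1.95, 2.08 and 3.31 CPM in the vehicle mice and 4.02, 2.96 and 2.91 CPM in the nanoplastic mice. Vehicle 1 and 2 are below every nanoplastic mouse, and vehicle 3 is above nanoplastic 2 and 3. The log2 fold change was 0.45 (SE 0.24, 95% interval -0.09 to 0.99, edgeR adjusted p = 0.717), on 48 to 99 counts per library. Another gene on the same strand, 9230102O04Rik, overlaps it with 3.69 to 20.1 counts. Without vehicle 3 it was 0.72, at an unadjusted p under 0.05, and without nanoplastic 1 it was 0.27. Without both of those libraries it was 0.55 (edgeR adjusted p = 0.478).

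Gata3 is also expressed by urothelium and T cells, and the levels of those cells were not even among the libraries. Nanoplastic 1, with the highest Gata3 level, had the highest summed urothelial level, 40.9 CPM. The urothelial gene Upk1b had 187 counts there and 15 to 51 in the other libraries. In nanoplastic 2 and 3 the urothelial sum was 4.72 and 4.00 CPM, and in vehicle 1 and 2 it was 10.5 and 8.15 CPM. Of the 9 urothelial genes 6 were tested, 0 passed, and all 6 were positive with a median log2 fold change of 1.26. Without vehicle 3 and nanoplastic 1 all 6 were negative, with a median of -0.85. Upk3a and Upk1b, uroplakins with the lowest p of that list, had 1.18 (SE 0.65) and 1.34 (SE 0.75), or -0.46 and -0.69 in the remaining 4 libraries. The T cell sum was 6.33 to 8.18 CPM in vehicle and 6.19 to 7.35 CPM in nanoplastic kidneys over 13 genes, of which none was at 0 in all libraries. Of these Cd4 and Cd3g, T cell surface proteins, had -0.46 (SE 0.35) and -0.67 (SE 0.53). The part of these cells in the Gata3 value was not tested.

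**Figure D2:**
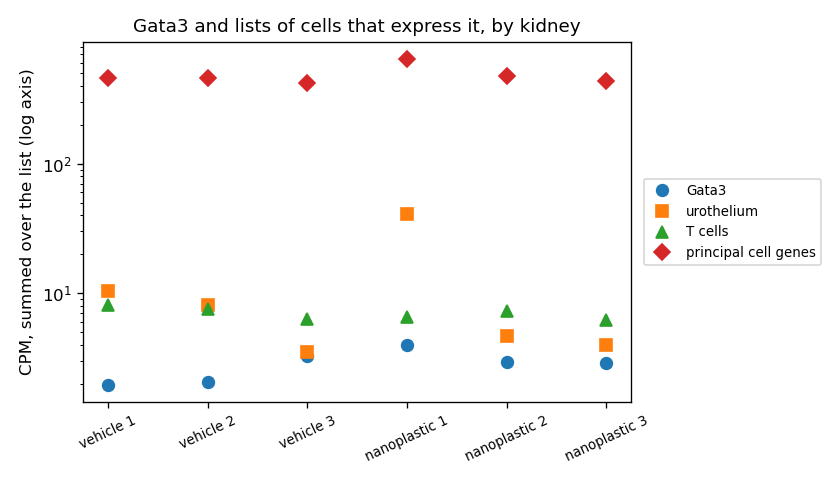
Gata3 in CPM and the summed level of 9 urothelial, 13 T cell and 18 principal cell genes (y axis, log scale) in each of the 6 kidneys (x axis). Nanoplastic 1 is highest for Gata3 (4.02), for urothelium (40.9) and for principal cell genes (645), and vehicle 1 is highest for T cells (8.18).

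**Figure D3:**
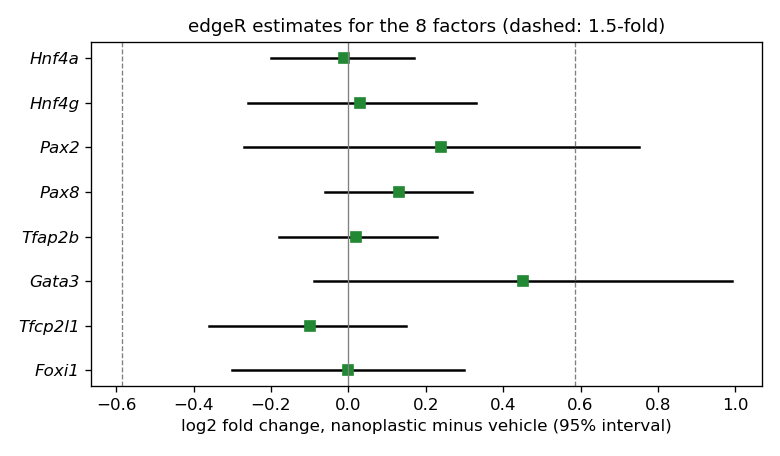
Log2 fold change (x axis, nanoplastic minus vehicle) of the 8 factors with 95% intervals from edgeR; dashed lines mark 1.5-fold. All intervals include 0, and those of Pax2 and Gata3 extend past the upper dashed line.

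The factors of the proximal tubule were next set against those of the distal nephron and collecting duct within each kidney. The mean log2 CPM of Hnf4a and Hnf4g minus that of Tfap2b, Gata3, Tfcp2l1 and Foxi1 was 1.87, 1.88 and 1.79 in the vehicle mice and 1.73, 1.79 and 1.81 in the nanoplastic mice. The groups overlap, with vehicle 3 among the nanoplastic values. The means were 1.85 ± 0.05 and 1.78 ± 0.04 (SD, n = 3 each), a difference of -0.07. Among the 8 pairs of a proximal and a distal factor, only the pairs with Gata3 differed by more than 0.2 log2 units, with -0.46 for Hnf4a minus Gata3 and -0.40 for Hnf4g minus Gata3. The pairs without Gata3 ran from -0.04 to 0.16, so the negative mean difference rests on Gata3. Hnf4a minus Foxi1 was 5.93, 6.08 and 5.92 in the vehicle and 6.15, 5.80 and 5.95 in the nanoplastic mice, a difference of -0.01. When the levels were summed before taking the ratio, so that the abundant Hnf4a and Tfcp2l1 dominate, the difference was 0.09, of opposite sign. No p is given for this score because its members were chosen with earlier results known. Tfcp2l1 was placed among the distal factors by the list, not by its values here. Over the 6 kidneys it correlated with Hnf4a and Hnf4g at Pearson's r of 0.91 and 0.45. With Foxi1, Tfap2b and Gata3 its r was 0.77, 0.18 and -0.27. Which segments its RNA came from was not tested.

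Levels of different genes were compared per kilobase of effective length, as CPM per kilobase averaged over the 6 kidneys. Hnf4a was highest at 156, followed by Tfcp2l1 at 51.5, Pax8 at 28.1, Tfap2b at 4.77, Foxi1 at 4.72, Hnf4g at 3.66, Gata3 at 1.55 and Pax2 at 1.45. Hnf4a, Tfcp2l1 and Pax8 were each separated from the next gene in every library, by ratios of 3.03, 1.83 and 5.89. The ranges of Tfap2b and Foxi1 overlapped, as did those of Foxi1 and Hnf4g and those of Gata3 and Pax2, so these neighbours have no order. Between Hnf4g and Gata3 the ratio was 2.36 with ranges that did not overlap. By CPM, Hnf4a and Tfcp2l1 stood at percentiles 99.2 and 98.8 of the tested genes, and Gata3 and Pax2 at 30.7 and 34.5.

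**Figure D4:**
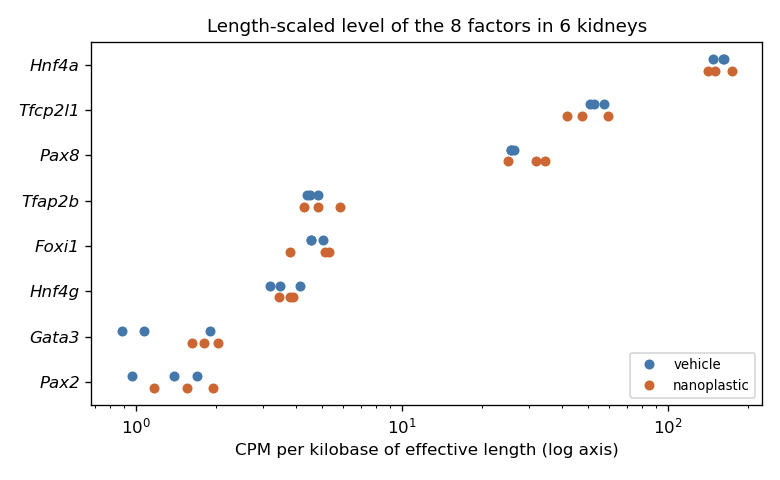
Length-scaled level (x axis, log scale, CPM per kilobase) of the 8 factors in the vehicle and nanoplastic kidneys, 1 point per mouse. Hnf4a lies at 141 to 173, Tfcp2l1 at 41.7 to 59.2 and Pax8 at 25.1 to 34.4, and the other 5 lie below 6.

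The length that RSEM assigns to a gene is an average over its transcripts weighted by their estimated shares, so it moves when the estimated mixture of transcripts moves. For Hnf4a, with 5 transcripts, it ranged only from 4308 to 4343 bases over the 6 libraries, and for Tfcp2l1, with 2, from 8851 to 9121. For Tfap2b it ranged from 3141 in nanoplastic 3 to 4483 in nanoplastic 2, both of the same group, and for Gata3 from 1821 in nanoplastic 3 to 2563 in vehicle 2. The counts behind these wide ranges were 330 to 454 for Tfap2b and 48 to 99 for Gata3. The groups overlapped in length for both genes.

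Genes that mark the segments of these factors were read from lists, all of which had 0 members called by edgeR over all genes. Promoters of 3 of them are shown because they carry the letters of a motif bound by the family of a distal or collecting duct factor and belong to genes that define its cells. Aqp2 encodes the vasopressin-regulated water channel of principal cells, Avpr2 the vasopressin receptor, and Atp6v1b1 a proton pump subunit of intercalated cells that is a known target of Foxi1. The 300-base sequences span the RefSeq start, on GRCm38.p6, which is not the build the counts were made on. They lie at chr15:99578806-99579105, chrX:73891852-73892151 and chr6:83742767-83743066, all on the plus strand. Capitals mark the match, searched on both strands. In Aqp2 it is to AGATAA, of the type bound by GATA factors, and it is read on the other strand. In Avpr2 it is to the CP2 type motif, which is CCAG repeated after 6 bases, also read on the other strand, and in Atp6v1b1 to TGTTTAC, of the forkhead type.
Aqp2: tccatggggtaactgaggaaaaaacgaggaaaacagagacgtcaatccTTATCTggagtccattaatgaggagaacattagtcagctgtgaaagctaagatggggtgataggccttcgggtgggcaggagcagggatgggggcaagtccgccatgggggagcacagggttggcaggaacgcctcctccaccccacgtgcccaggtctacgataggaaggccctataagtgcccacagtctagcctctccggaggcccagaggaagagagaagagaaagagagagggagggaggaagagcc
Avpr2: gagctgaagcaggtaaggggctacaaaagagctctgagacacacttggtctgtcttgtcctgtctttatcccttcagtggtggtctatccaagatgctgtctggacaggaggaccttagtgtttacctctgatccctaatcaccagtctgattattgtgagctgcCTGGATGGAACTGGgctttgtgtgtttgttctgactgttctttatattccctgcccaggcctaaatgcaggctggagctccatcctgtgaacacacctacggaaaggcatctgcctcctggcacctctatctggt
Atp6v1b1: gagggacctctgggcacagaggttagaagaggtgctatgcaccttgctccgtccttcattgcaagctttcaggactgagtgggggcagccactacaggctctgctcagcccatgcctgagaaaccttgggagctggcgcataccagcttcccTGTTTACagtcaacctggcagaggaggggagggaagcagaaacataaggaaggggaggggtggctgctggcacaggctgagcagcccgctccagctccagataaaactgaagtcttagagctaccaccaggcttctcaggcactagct
The matches begin 202, 85 and 98 bases before the start. Of 27025 genes with a RefSeq promoter in the table, 12.7% held AGATAA, 3.94% held the CP2 type motif and 4.05% held TGTTTAC. Among principal cell genes 2 of 12 held AGATAA and 2 of 12 held the CP2 type motif, and among intercalated cell genes 2 of 16 held TGTTTAC. The letters AGATAA and TGTTTAC were more frequent in some other segments. AGATAA was in 28.6% of proximal tubule, 26.7% of distal convoluted tubule and 16.7% of principal cell promoters. TGTTTAC was in 20.0% of distal convoluted tubule, 16.7% of principal cell and 12.5% of intercalated cell promoters. The CP2 type motif was in 1 of 10 thick limb and 0 of 15 distal convoluted tubule promoters. The HNF4-type letters CAAAGTCCA were in 0 of 28 proximal tubule promoters and in 0.555% of all. Outside the capitals, the Avpr2 promoter also holds TGTTTAC and the Atp6v1b1 promoter AGATAA. A match is a description of letters, not of binding.

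Intercalated cell genes, the group that Foxi1 controls, had 8 positive and 16 negative estimates among 24 tested and a median log2 fold change of -0.03. In the remaining 4 libraries the balance was the other way, with 16 positive and 8 negative and a median of 0.07. Atp6v1b1 measured 49.7, 50.9 and 50.8 CPM in the vehicle and 44.0, 50.6 and 57.6 CPM in the nanoplastic mice, with a log2 fold change of 0.00 (SE 0.09). Slc4a1, the basolateral anion exchanger of acid-secreting cells, had 0.02 (SE 0.09). Dmrt2 and Hmx2, factors of intercalated cells, had 0.02 (SE 0.20) and 0.01 (SE 0.21); in the remaining 4 libraries Hmx2 had 0.29. P2ry14, a nucleotide sugar receptor of these cells, had 0.54 (SE 0.30), with 7.27 CPM in nanoplastic 1 and 3.01 to 3.64 CPM in the other 5 libraries, and 0.05 in the remaining 4. Oxgr1, an oxoglutarate receptor, had -0.17 (SE 0.10), or -0.02 in the remaining 4, and Car2, a carbonic anhydrase, -0.11 (SE 0.09). At an unadjusted p under 0.05 there was 1 of 24 against 7.42% of all genes, so the count is no more than the background. It was Aqp6, an intracellular aquaporin of intercalated cells, at 4.05 ± 0.253 CPM in vehicle and 6.01 ± 0.573 CPM in nanoplastic kidneys (SD, n = 3). Its groups did not overlap, with a log2 fold change of 0.58 (edgeR adjusted p = 0.448).

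Principal cell genes had 12 positive and 6 negative estimates among 18 tested and a median of 0.11. In the remaining 4 libraries there were 8 positive and 10 negative, with a median of -0.06. Summed over the 18 genes, nanoplastic 1 held 645 CPM and the other 5 libraries 416 to 474 CPM. Aqp2 measured 58.8, 61.7 and 43.3 CPM in the vehicle and 149, 61.1 and 46.1 CPM in the nanoplastic mice, so that its log2 fold change of 0.65 (SE 0.34) rested on nanoplastic 1. Without nanoplastic 1 and vehicle 3 it was -0.16. Avpr2 had 0.02 (SE 0.22), and -0.45 without the same 2 libraries. Aqp4, another water channel of these cells, measured 31.0, 31.5 and 27.7 CPM in the vehicle and 82.8, 63.9 and 36.2 CPM in the nanoplastic mice (log2 fold change 1.03, SE 0.22, edgeR adjusted p = 0.319), with groups that did not overlap, and 0.69 in the remaining 4 libraries. Aqp3, the basolateral channel, had 0.24 (SE 0.08), and Cldn4, a tight junction protein, had 0.49 (SE 0.24), or 0.02 without the same 2 libraries.

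Proximal tubule genes, which include many that depend on Hnf4a, had 11 positive and 26 negative estimates among 37 tested and a median of -0.05. Without vehicle 3 and nanoplastic 1 there were 20 positive and 17 negative estimates, with a median of 0.01. Slc22a7, an organic anion transporter, measured 141, 127 and 91.0 CPM in the vehicle and 65.3, 78.3 and 79.9 CPM in the nanoplastic mice (log2 fold change -0.68, SE 0.14, edgeR adjusted p = 0.311). DESeq2, which called 0.44% of genes with an adjusted p, called it lower (adjusted p = 0.000147), and edgeR did so without vehicle 3 and nanoplastic 1 (adjusted p = 0.00898). Keg1, an acyltransferase-like gene of the kidney, had -0.53 (SE 0.14), Cyp7b1, an oxysterol hydroxylase, -0.33 (SE 0.10), and Hpd, an enzyme of tyrosine breakdown, 0.39 (SE 0.11). In these 4 genes, picked for the lowest p of the list, the groups did not overlap. Over the list this held for 2 higher and 4 lower of 37, against 6.54% and 6.32% of all genes. In contrast Slc34a1 and Lrp2 had -0.01 (SE 0.10) and -0.10 (SE 0.11), and the groups overlapped in both.

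In the distal nephron, distal convoluted tubule genes had 7 positive and 11 negative estimates among 18 and a median of -0.04, and 11 positive and 7 negative with a median of 0.03 in the remaining 4 libraries. The sum of the list was 9085 to 9574 CPM in vehicle and 8566 to 9367 CPM in nanoplastic kidneys. Calb1, the calcium-binding protein calbindin, had -0.27 (SE 0.10), Slc8a1, a sodium-calcium exchanger, -0.26 (SE 0.13), and Slc12a3, the thiazide-sensitive cotransporter, 0.06 (SE 0.15). Wnk4, a kinase that regulates it, and Trpm6, a magnesium channel, had 0.13 (SE 0.10) and 0.16 (SE 0.12). In the remaining 4 libraries these 5 genes, in the order given, had -0.16, -0.11, 0.35, 0.29 and 0.31. Thick limb genes had 9 positive and 5 negative estimates among 14 and a median of 0.00, and 5 positive and 9 negative with a median of -0.12 in the remaining 4 libraries. Umod, the uromodulin gene, measured 3961, 4341 and 3410 CPM in the vehicle and 3208, 3303 and 2836 CPM in the nanoplastic mice (log2 fold change -0.33, SE 0.11, edgeR adjusted p = 0.588), with groups that did not overlap. Cldn3, Cldn10 and Sostdc1 had 0.25, -0.11 and 0.06, with groups that overlapped, and Cldn3 had 0.08 in the remaining 4 libraries.

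Other transcription factors of the nephron were taken from a list of 45, of which 42 were tested. By edgeR 0 of 42 were called. There were 29 positive and 13 negative estimates with a median of 0.04, and 5 higher and 3 lower at an unadjusted p under 0.05, against 3.8% and 3.61% of all genes. Klf15, a Krüppel-like factor of glucocorticoid and metabolic control, measured 55.5, 47.1 and 54.4 CPM in the vehicle and 64.7, 73.3 and 66.9 CPM in the nanoplastic mice (log2 fold change 0.38, SE 0.08, edgeR adjusted p = 0.319). Every nanoplastic value lies above every vehicle value. DESeq2 called Klf15 higher (adjusted p = 0.0258).

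Nr1h4, the bile acid receptor FXR, measured 152, 159.5 and 134 CPM in the vehicle and 77.9, 111 and 126 CPM in the nanoplastic mice (log2 fold change -0.51, SE 0.14, edgeR adjusted p = 0.501), and DESeq2 called it lower (adjusted p = 0.0258). Tfcp2, a close relative of Tfcp2l1, averaged 32.5 ± 2.01 CPM in vehicle and 40.7 ± 2.63 CPM in nanoplastic kidneys (SD, n = 3). Its log2 fold change was 0.33 (SE 0.08), an estimate of opposite sign to that of Tfcp2l1. Sall1, a zinc finger factor of nephron progenitors, averaged 22.2 ± 2.04 CPM in vehicle and 16.7 ± 1.61 CPM in nanoplastic kidneys (SD, n = 3), with a log2 fold change of -0.41 (SE 0.10). In both genes the groups did not overlap, and DESeq2 gave adjusted p values of 0.170 and 0.149.

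A pair of principal cell factors was read after their values were seen. Gata2, a factor of principal cells like Gata3, had a log2 fold change of 0.17 (SE 0.14), and 0.08 in the remaining 4 libraries. Elf5, another principal cell factor, had 1.09 (SE 0.63), with 4.67 CPM in nanoplastic 1 and 0.552 to 1.47 CPM in the other 5 libraries, and -0.51 without nanoplastic 1 and vehicle 3.

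**Figure D5:**
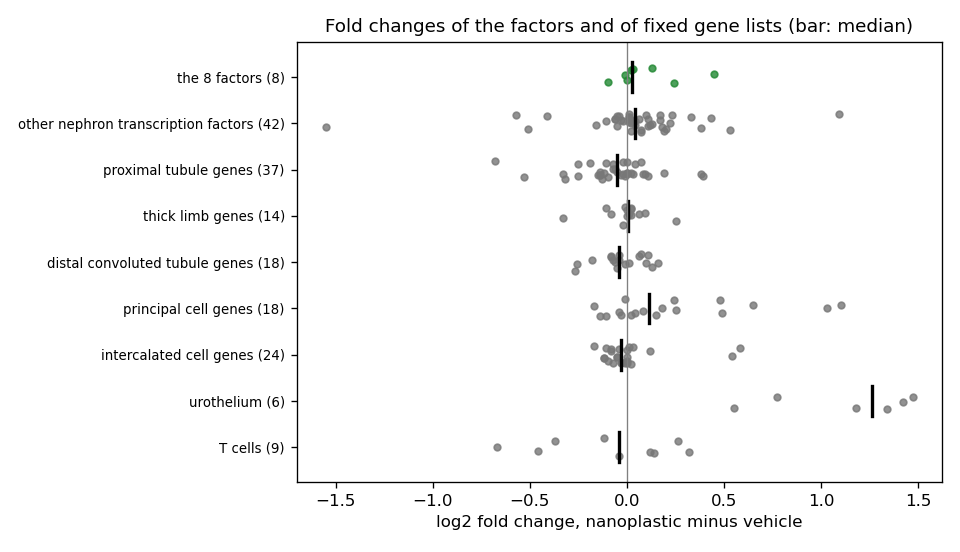
Log2 fold change (x axis, nanoplastic minus vehicle) of the 8 factors and of the tested members of the gene lists (rows, number tested in brackets), 1 point per gene with a bar at the median. The factors have a median of 0.03, and the urothelial list stands to the right at 1.26, or at -0.85 without vehicle 3 and nanoplastic 1.

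Across the 6 kidneys, each of 6 factor and segment list pairs was compared by the mean log2 CPM of the list, with exact permutation tests, two-sided. Tfcp2l1 was low where principal cell genes were high, with Pearson's r of -0.870 (exact permutation p = 0.0250, adjusted over the 6 relations 0.15) and Spearman's rho of -0.886 (exact permutation p = 0.0333, adjusted 0.200). Without nanoplastic 1 and nanoplastic 3, the libraries farthest from the median of Tfcp2l1, r was -0.885 over 4 libraries. Foxi1 and intercalated cell genes had r of 0.855 (exact permutation p = 0.0528, adjusted 0.158) and rho of 0.6 (exact permutation p = 0.242, adjusted 0.725). That relation rests on nanoplastic 1 and nanoplastic 3, without which r was 0.150. Hnf4a and proximal tubule genes had r of 0.551 (exact permutation p = 0.250, adjusted 0.5) and rho of 0.200 (exact permutation p = 0.714, adjusted 1.0), and without the same 2 libraries r was -0.866. For Hnf4g with proximal tubule genes, Tfap2b with distal convoluted tubule genes and Gata3 with principal cell genes, r was 0.101, 0.375 and 0.442 (exact permutation p = 0.953, 0.467 and 0.378; adjusted 0.953, 0.560 and 0.560) and rho was -0.200, -0.0286 and 0.0286 (exact permutation p = 0.714, 1.0 and 1.0; each adjusted 1.0). None of the 6 passed adjustment.

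The genes whose levels followed each factor most closely over the 6 libraries were sought among 10381 named protein-coding genes with a mean of at least 5 CPM, by the size of Pearson's r in log2 CPM, as a description without a p. For Hnf4a they were Srgap1 and Zdhhc5 (0.993 and 0.988), for Hnf4g Deptor and Tnrc6c (0.992 and 0.980), and for Pax2 Apc and Usp40 (0.994 and 0.993). For Pax8 they were Srebf2 and Ergic1 (0.986 and 0.976), and for Tfap2b Capn15 and Ice2 (0.991 and 0.987). For Gata3 they were Sult1c2 and Marveld2 (0.998 and 0.996), for Tfcp2l1 Rsc1a1 and Zfp954 (0.993 and 0.990), and for Foxi1 Osgin1 and Mapkbp1 (0.996 and 0.992). Between 42 genes for Pax8 and 163 for Tfcp2l1 had a value above 0.9, and with only 6 libraries such values are common among so many genes. Differences in tissue makeup between the libraries were not taken out.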

How the data were processed

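Kidney RNA libraries of 3 vehicle and 3 nanoplastic mice were analysed, 1 mouse each, with groups taken from the labels. The submitters' processing notes name RSEM 1.3.3, STAR 2.7.9a, GRCm39, Trim Galore 0.6.6 and FastQC; annotation release and strand setting are not given in the sources used here. RSEM's estimated counts (expected counts), TPM, FPKM and transcript-weighted lengths were deposited by the authors per gene. FPKM were not used. The expected counts were rounded to whole numbers. RSEM divides reads that fit several genes. Of all genes listed, including those at 0, 10.4% to 11.1% had a count that was not whole (tolerance 0.005).

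Of 57180 identifiers 51884 were named by gene and 738 by transcript identifier, and 4558 kept their identifier. No gene coordinates are given, since the annotation used for names is on another build. Genes passing filterByExpr (minimum count 10) entered edgeR 4.0.16 in R 4.3.3 (TMM scaling, glmQLFit, glmQLFTest), with Benjamini-Hochberg adjustment over 18092 genes and a threshold of 0.05. Log2 fold changes are nanoplastic minus vehicle, as estimated by the fit. Log2 CPM values were made with a prior count of 2. The biological coefficient of variation was 0.105 and the median distance from an estimate to its 95% bound 0.28. On counts simulated for this comparison over 18092 genes, 13.3%, 54.7%, 77.3% and 96.7% of genes changed 1.25-, 1.5-, 2- and 3-fold were called. Each of 3 simulated sets held 200 changed genes, drawn from genes with a mean of at least 1 CPM. Noise was drawn for each gene alone, without shifts that many genes of a library share. The shares therefore need not hold for the real libraries. Alternatives were DESeq2 1.42.0, limma 3.58.1 (voom, and log2(TPM + 0.1)), other scalings and filters, a replicate block and leaving out libraries.

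The 8 factors and all gene lists were chosen with earlier results of these data known. Named genes are the 8 factors, the 4 of lowest p in each segment list and among other factors, the 2 of lowest p in each cell type list and the 2 most alike each factor. Genes named for their role were chosen with their values seen. Promoters were RefSeq's on GRCm38.p6, found for 7 of the 8 factors (not Hnf4g).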

Additional observations from a re-analysis of the deposited data

How the results depend on the processing

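None of the 8 factors was called under any of 16 alternatives, with the lowest adjusted p at 0.457 for Tfcp2l1 and 0.478 for Gata3. The number of genes called was 0 with edgeR on all 6 libraries, 55 with DESeq2, 0 to 10 when 1 mouse was left out (1 without vehicle 3, 10 without nanoplastic 1 and 1 without nanoplastic 3) and 30 without vehicle 3 and nanoplastic 1; leaving out mice removes samples and adds genes to the test, and otherwise the cause was not tested. At an unadjusted p under 0.05, 1 factor was found on log2(TPM + 0.1) and without nanoplastic 2 (Pax8), without vehicle 3 and without vehicle 3 and nanoplastic 1 (Gata3), and without nanoplastic 3 (Tfcp2l1). With the replicate number as a block, 0 genes were called, 1408 had an unadjusted p under 0.05 against 1342 without the block, and the lowest adjusted p of a factor was 0.702. The deviations of same-numbered mice from their group means correlated at 0.0436, -0.0230 and 0.103, not every mouse correlated best with its own number, and the numbers were not taken as pairs. Of 128 log2 fold changes 106 kept their direction. Pax2, Pax8 and Gata3 kept theirs in all 16 alternatives (0.018 to 0.48, 0.073 to 0.29 and 0.27 to 0.72). The 22 that reversed belonged to the other 5, whose ranges were -0.097 to 0.074 (Hnf4a), -0.035 to 0.23 (Hnf4g), -0.03 to 0.17 (Tfap2b), -0.25 to 0.065 (Tfcp2l1) and -0.078 to 0.2 (Foxi1); Tfap2b was at 0.12 without vehicle 3 and nanoplastic 1. Foxi1 was at -0.00034 with RLE scaling, -0.0016 with the replicate block, -0.0046 without a filter, -0.016 with limma-voom, and -0.021, -0.026, -0.067 and -0.078 without vehicle 1, vehicle 2, nanoplastic 2 and nanoplastic 3. Hnf4a was at 0.027 with library size alone, 0.049 on log2(TPM + 0.1), 0.0094, 0.01, 0.049 and 0.0058 without vehicle 2, vehicle 3, nanoplastic 1 and nanoplastic 2, and 0.074 without vehicle 3 and nanoplastic 1. Hnf4g was at -0.033 and -0.035 without vehicle 1 and vehicle 2, Tfap2b at -0.03, -0.0019 and -0.0048 without vehicle 1, vehicle 2 and nanoplastic 2, and Tfcp2l1 at 0.0043 without nanoplastic 1 and 0.065 without vehicle 3 and nanoplastic 1. The proximal minus distal difference was -0.11 to -0.05 under the other alternatives and 0.09 from summed CPM, where the most abundant factor of each side dominates. None of these alternatives left out Gata3. On all 6 libraries the pairs without it ran from -0.04 to 0.16, so the negative difference rests on Gata3. Library size alone and TPM moved the median of all genes to 0.05 and 0.07. Counts of 48 to 109 limit Gata3 and Pax2, whose intervals reach 1.98-fold and 1.68-fold.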

Other observations

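Genes of other kidney cells were read for the same libraries, and edgeR called 0 members of each list. Macrophage genes had 8 of 8 tested estimates negative, with a median log2 fold change of -0.20 against 0.01 over all genes, and -0.33 without vehicle 3 and nanoplastic 1. Their summed level was 109 to 118 CPM in vehicle and 98.9 to 104 CPM in nanoplastic kidneys, so that the groups did not overlap. Of all single genes, 6.32% had groups that did not overlap with nanoplastic lower. The sums of all the other lists overlapped between the groups. Whether the number of macrophages differed was not tested. Itgam, which encodes the CD11b integrin chain, averaged 2.19 ± 0.160 CPM in vehicle and 1.44 ± 0.105 CPM in nanoplastic kidneys (SD, n = 3) with a log2 fold change of -0.62 (edgeR adjusted p = 0.591), and Adgre1, the F4/80 antigen, had -0.35 (SE 0.15). Among parietal cell and podocyte genes, 4 of 9 estimates were positive with a median of -0.02. Cldn1, a claudin of parietal cells, measured 15.4, 11.1 and 12.8 CPM in the vehicle and 21.0, 18.7 and 18.1 CPM in the nanoplastic mice (log2 fold change 0.56, SE 0.12, edgeR adjusted p = 0.319), and DESeq2 called it higher (adjusted p = 0.0373). Ncam1, an adhesion molecule, had 0.36 (SE 0.21), or 0.01 without vehicle 3 and nanoplastic 1, where the list's median was 0.13.

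The medians were -0.03 over 10 mesangial and mural cell genes, -0.02 over 8 endothelial genes, -0.01 over 8 hepatocyte genes and -0.04 over 9 T cell genes. Without vehicle 3 and nanoplastic 1 they were -0.21, -0.03, 0.25 and -0.22 in the same order. The smooth muscle genes Tagln and Acta2 had -0.33 (SE 0.14) and -0.14 (SE 0.09), and the endothelial genes Emcn and Plvap 0.18 (SE 0.11) and 0.08 (SE 0.08), or -0.02 each without those libraries. Ttr, the transthyretin gene, had -0.72 (SE 0.23, edgeR adjusted p = 0.541), and was called lower without vehicle 3 and nanoplastic 1 at -0.62 (edgeR adjusted p = 0.0299), where the other 7 hepatocyte genes were positive. Serpina1a, an antitrypsin gene, had 0.22 (SE 0.09, edgeR adjusted p = 0.662). Of 7 adipocyte genes only Lipe, a lipase, was tested, with 0.36 (SE 0.22), or 0.03 without vehicle 3 and nanoplastic 1. The adipocyte hormone gene Adipoq had 444 counts in nanoplastic 1, 130 in vehicle 3 and 0 to 2 in the other 4 libraries.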
